A study of Mus musculus with 4 samples.

Results

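Valve and cushion mesenchyme was read as the cells that carried transcripts of a cushion gene set in Drop-seq libraries of whole mouse embryonic hearts. A cell was a member when at least 2 of 8 genes were seen in it (Sox9, Papss2, Col9a1, Col9a3, Meox1, Car3, Scx and Hapln1, called set V here) together with at least 1 transcript of Postn or Col1a1. It also had to show more genes of set V than of a fibroblast set of 8 (Tcf21, Spon2, Lsp1, Slc38a5, Gucy1a3, Ogn, Col14a1 and Pid1, set F) and no transcript of Dpp4, Mfap5, Pecam1 or Cdh5. Cells entered this choice when they held at least 500 unique molecular identifiers (UMIs, the tags that count captured transcripts), at most 20% mitochondrial UMIs and under 1% UMIs of Tnnt2, Actc1, Myh6 and Myh7. The rule found 2230 members among 24849 cells. At E13.5 there were 751 members in the control library and 872 in the Lats1/2 CKO library. The E14.5 libraries held 330 and 277.

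The study set control hearts beside hearts with floxed Lats1 and Lats2, which encode the kinases of the Hippo pathway, at the embryonic stages E13.5 and E14.5. Control embryos had the genotype Wt1 CreERT2/+; Rosa26mTmG/+. Lats1/2 CKO embryos had Wt1 CreERT2/+; Lats1/2 F/F; Rosa26mTmG/+, so controls carried the same recombinase and reporter alleles. Each genotype and stage was 1 library, with no replicate library. Whether embryos were pooled, and when tamoxifen was given, is not given in the sources used here. The Wt1 promoter is active in the epicardium, the outer layer of the heart, so the deletion is not directed at every cell of the cushions.

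Endocardial cushions form when endocardial cells of the atrioventricular canal and outflow tract lose their contacts and invade a hyaluronan-rich matrix. The resulting mesenchyme later builds the valve leaflets, and cells from the epicardium and the neural crest join it in some leaflets. Bone morphogenetic proteins, TGF-beta and Wnt ligands drive these steps, and SOX9 sustains proliferation and a cartilage-like matrix in the cushion cells. LATS1 and LATS2 phosphorylate the co-activators YAP and TAZ and keep them out of the nucleus.

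Values are listed by stage, E13.5 first, and within a stage control comes before Lats1/2 CKO. Levels are UMIs of a gene per 1000000 UMIs (CPM) summed over all cells of a class in a library. Members held 1530626, 1873730, 439904 and 357073 UMIs, with medians of 1580, 1784, 978 and 971 UMIs per cell. The depth per cell therefore fell between the stages in both genotypes. The libraries shared 14 cell barcodes, and 4 members carried one of these. Transcripts of many ribosomal proteins were far higher in both E14.5 libraries than in both E13.5 libraries, in members and in other cells alike. Rps12, for example, stood at 7.84, 20.8, 1079.8 and 1098 CPM in members and at 9.86, 16.5, 862 and 846 CPM in all other kept cells. Eif2s3y, a Y-linked gene, stood at 60.1, 51.8, 0 and 11.2 CPM in members. Whether the sex of the embryos differed between libraries was not tested.

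Upstream sequence is shown for 3 genes that mark these cells: Col9a1 and Hapln1 of set V, and Bmper, one of the genes highest over fibroblasts. Each run holds the 250 bases before the annotated start, 5′ to 3′ on the gene's strand, from the RefSeq promoter table of GRCm38.p6. Capitals mark the letters TCAAAG, the core that TCF and LEF proteins recognise, on either strand; ACAAAG, the core recognised by SOX proteins, was searched in the same way.
Col9a1 (chr1:24177360-24177609, plus strand): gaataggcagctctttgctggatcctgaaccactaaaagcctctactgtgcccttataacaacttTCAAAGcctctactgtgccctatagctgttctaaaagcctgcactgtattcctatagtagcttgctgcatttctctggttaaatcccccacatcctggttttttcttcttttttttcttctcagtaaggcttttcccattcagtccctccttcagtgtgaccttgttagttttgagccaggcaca
Hapln1 (chr13:89540386-89540635, plus strand): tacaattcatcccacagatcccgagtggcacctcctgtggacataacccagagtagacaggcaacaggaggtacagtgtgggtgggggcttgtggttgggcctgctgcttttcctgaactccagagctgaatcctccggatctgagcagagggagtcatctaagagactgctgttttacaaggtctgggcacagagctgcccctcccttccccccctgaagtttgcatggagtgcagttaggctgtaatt
Bmper (chr9:23222826-23223075, plus strand): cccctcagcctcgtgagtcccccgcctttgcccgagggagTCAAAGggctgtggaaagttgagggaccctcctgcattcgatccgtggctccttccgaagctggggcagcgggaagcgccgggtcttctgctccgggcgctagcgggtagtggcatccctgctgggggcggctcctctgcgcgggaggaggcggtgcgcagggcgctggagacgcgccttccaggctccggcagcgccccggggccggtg
Col9a1 and Bmper each held 1 TCAAAG core, 185 and 210 bases before the start, and Hapln1 held neither core. Of all 32851 promoters in the table, 13.8% held TCAAAG and 16.5% held ACAAAG. The table matched 3 of the 8 genes of set V, of which 1 held TCAAAG and 0 held ACAAAG. It matched 12 of the 20 genes highest over fibroblasts, of which 1 (Bmper) held TCAAAG and 1 (Kcnj15) held ACAAAG at the most upstream start.

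The 8 genes of set V chose the cells, so their levels are a description. Sox9, the SRY-box factor that switches on cartilage collagens (chromosome 11, 112782224 to 112787760 on GRCm38, plus strand), stood at 724, 546, 837 and 905 CPM in members and at 188, 132, 199 and 156 CPM in fibroblasts. Fibroblasts here are cells under the same filters with at least 2 genes of set F and more of F than of V (301, 438, 300 and 244 cells). Col9a1, a chain of the type IX collagen of cartilage, stood at 423, 481, 336 and 493 CPM in members and 46.6, 62.4, 19.2 and 6.0 CPM in fibroblasts. Papss2, which makes the sulfate donor for proteoglycans, stood at 447, 482, 359 and 400.5 CPM in members against 19.8, 21.6, 19.2 and 12 CPM in fibroblasts. Meox1, a homeobox factor of mesoderm, stood at 487, 587, 600.1 and 524 CPM against 103, 90.3, 152 and 117 CPM, and Scx, a factor of tendon and valve, at 176, 201, 168 and 260.4 CPM against 23.3, 15.2, 29.9 and 6.0 CPM. Sox9 was seen in 63.6, 59.1, 61.2 and 62.5% of members, and Car3 in 24.2, 21.0, 23.6 and 18.8%, so no single gene of the set marked every member. Hapln1, a link protein that ties versican to hyaluronan, was shared with another class. It stood at 776, 514, 479.6 and 451 CPM in members and at 1388, 1033, 1021 and 450.2 CPM in valve endothelium, taken as cells with transcripts of Pecam1 or Cdh5 and of Wnt4 or Cyp26b1 (82, 122, 47 and 37 cells).

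Many members lay close to the threshold. Exactly 2 genes of set V were seen in 766 members, 3 in 644, 4 in 445 and 5 to 8 in the rest, with all 8 in 5 cells. Just outside, 722 cells met every other criterion with 1 gene of set V, and 94 cells had at least 2 but as many genes of F as of V. No gene of set F was seen in 1505 members.

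The label was checked against markers that the rule did not use, apart from 4 of the cardiomyocyte markers. Cartilage genes were divided. Acan, the main cartilage proteoglycan, stood at 1.31, 3.74, 0 and 0 CPM, and Matn1, Ihh and Ucma had no UMI in any library. Of the same list, Col2a1, the main cartilage collagen, stood at 64, 105, 77.3 and 61.6 CPM and Lect1, a cartilage inhibitor of vessel growth, at 10.5, 24, 0 and 5.60 CPM. Transcripts of 12 epicardial markers summed to 70.6, 90.2, 97.7 and 92.4 CPM, with Muc16 at 0 in every library. Transcripts of 8 mural markers summed to 156, 254, 232 and 179 CPM, with Higd1b at 0 throughout, and those of 10 endothelial markers to 525, 660.2, 684 and 633 CPM, with Egfl7 and Cldn5 at 0. Most of the endothelial sum was Ramp2, a receptor partner, at 455, 579, 525 and 541 CPM in members, 126, 168, 137 and 168 CPM in fibroblasts and 1468, 2101, 1257 and 846 CPM in valve endothelium. Cardiomyocyte and red-cell transcripts were more abundant. The 10 cardiomyocyte markers summed to 1289, 1414, 4142 and 3445 CPM and the 8 erythroid markers to 5561, 6569, 9754 and 3226 CPM. The rule itself limited 4 of the cardiomyocyte markers (Tnnt2, Actc1, Myh6 and Myh7), so their sum is partly bounded by it. These levels differed between libraries, and their part in the results below was not tested. In the E13.5 groups below, 10 smooth muscle genes summed to 2198 to 8577 CPM. Endocardial markers summed to 186 to 330, neural crest and glial markers to 15.9 to 182 and macrophage markers to 5.92 to 92.3 CPM there. Against fibroblasts, 1 of 7 smooth muscle genes at 50 CPM was higher in every library and 5 were lower. The 1 neural crest and glial gene at that level was higher. Over all 3582 such genes, 24.0% were higher and 21.4% lower.

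Transcription factors of the cushions were higher in members than in fibroblasts. Of 19 listed factors with at least 50 CPM in all libraries of either class, 18 were higher in members in all 4 libraries and 1, Zeb2, was lower. Over all 3582 genes at that level, 24.0% were higher in all 4 libraries and 21.4% were lower. These class differences are a description, since the classes were cut from the same cells. Twist1, a factor of cushion mesenchyme, stood at 349.5, 296, 227 and 260.4 CPM in members and 60.6, 55.2, 59.8 and 63 CPM in fibroblasts. Msx1, a target of bone morphogenetic protein signalling, stood at 220.2, 168, 139 and 129 CPM against 14, 5.60, 10.7 and 6.0 CPM. Tbx20, a T-box factor of cushions and myocardium, stood at 816, 987, 932 and 804 CPM against 276, 289, 378 and 267 CPM. For these 3 genes every member value lay above every fibroblast value. Sox5, a partner of SOX9 in cartilage, and Prrx1, a homeobox factor of mesenchyme, showed the same order, at 130.01, 113, 127 and 98 CPM against 21, 18.4, 17.1 and 24 CPM and at 269, 288, 255 and 322 CPM against 71.1, 79.1, 111 and 114 CPM. Gata4 differed less from fibroblasts and stood at a like level in valve endothelium (156, 183, 148 and 132 CPM in members, 75.8, 70.3, 91.8 and 81 CPM in fibroblasts, 154, 179, 102 and 155 CPM in valve endothelium).

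Genes of the hyaluronan matrix were mostly higher in members too. Of 13 listed genes at 50 CPM, 9 were higher in members in all 4 libraries and 2, Adamts5 and Aspn, were lower. The shares over all genes were 24.0% and 21.4%. Vcan, the large proteoglycan versican of the cardiac jelly (chromosome 13, 89655312 to 89742509, minus strand), stood at 2472, 2886, 2112 and 2327 CPM in members, 274, 366, 303 and 276 CPM in fibroblasts and 695, 639, 597 and 411 CPM in valve endothelium. Has2, the hyaluronan synthase needed for cushion formation, stood at 105, 106, 59.1 and 86.8 CPM against 6.99, 13.6, 15 and 9.0 CPM in fibroblasts. Ugdh, which makes the glucuronate precursor of hyaluronan, stood at 323, 277, 271 and 305 CPM against 115, 139.9, 143 and 99 CPM. Adamts19, a protease gene of valve tissue, stood at 144, 145, 207 and 190.4 CPM against 10.5, 12.8, 12.8 and 12 CPM, and Lum, a collagen-binding proteoglycan, at 1734, 1572, 932 and 1322 CPM against 494, 490.01, 406 and 198 CPM. None of these 5 genes had a fibroblast value that reached the lowest member value.

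Collagens did not share that order. Of 31 listed collagen and matrix-processing genes, 11 were higher in members in all libraries and 15 were lower, beside the shares of 24.0% and 21.4% over all genes. Col18a1, a basement membrane collagen, stood at 377, 427, 382 and 361 CPM in members, 107, 124, 64.1 and 66 CPM in fibroblasts and 627, 699, 456 and 745 CPM in valve endothelium. Col1a1, one of the 2 genes that admitted cells, was lower in members, at 760.5, 980.4, 1166 and 1112 CPM against 1339, 1617, 2185 and 3580.3 CPM. Postn, the other, was higher, at 3777, 3928, 3774 and 3839.6 CPM against 929, 1277, 1469.5 and 1104 CPM. Among 8 cartilage-type genes, Col2a1, Col9a2, Papss1 and Chsy1 were higher in members in all libraries, and Col11a1, Chpf and Sulf1 were lower. Col2a1 stood at 4.66, 5.60, 6.41 and 3.0 CPM in fibroblasts, below its values in members. After each cell was thinned to 500 UMIs, 3.86, 6.65, 3.94 and 3.97% of members held a Col2a1 UMI. The share was 0.332, 0.457, 0.667 and 0% of fibroblasts. Among cells removed by the cardiomyocyte limit, with at least 1% UMIs of Tnnt2, Actc1, Myh6 and Myh7, it was 1.81, 1.72, 0.449 and 0.962%. It was 0% of valve endothelium in every library. Members had the highest share in each library. The source of the UMIs in cells removed by the cardiomyocyte limit was not tested.

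Ligands and modulators of the cushion pathways were likewise higher in members. For TGF-beta and BMP signalling, 12 of 16 genes were higher in all libraries and 1, Bmp4, was lower. The shares over all genes were 24.0% and 21.4%. Bmp2, the ligand that starts cushion transformation, stood at 207, 182, 189 and 123 CPM against 14, 21.6, 25.6 and 9.0 CPM in fibroblasts. Tgfb2, the main TGF-beta ligand of the cushions, stood at 572, 541, 461 and 526 CPM against 329, 368, 258 and 267 CPM. The inhibitors Smad6, Smad7 and Bambi were also higher in every library, as were the extracellular modulators Twsg1 and Fstl1.
For Wnt signalling, 5 of 10 genes were higher and 1, Sfrp1, was lower, beside the same 24.0% and 21.4%. Lef1, the nuclear partner of beta-catenin (chromosome 3, 131110471 to 131224356, plus strand), stood at 139, 138, 132 and 204 CPM in members, 5.83, 2.40, 4.27 and 6.0 CPM in fibroblasts and 22.8, 25.5, 15.7 and 23.3 CPM in valve endothelium. Rspo3, a secreted enhancer of Wnt signals, stood at 131, 131, 134 and 137 CPM against 16.3, 20.8, 17.1 and 21 CPM. Wnt16, a ligand, stood at 91.5, 65.6, 56.8 and 64.4 CPM against 6.99, 5.60, 0 and 9.0 CPM. Axin2, a common readout of beta-catenin activity, stood lower in level but in the same order, at 35.9, 42.7, 50.01 and 47.6 CPM against 9.32, 4.0, 8.54 and 3.0 CPM.

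By a rule of size, the 20 genes farthest above fibroblasts in their weakest library were Npy, Lef1, Msx1, Adamts19, Col2a1, Sall3, Ptprb, Kcnj15, Bmper, Bmp2, Vcan, Mstn, Wnt16, Rtn1, Ociad2, Rspo3, Shisa2, Ptx3, Stmn4 and Crispld1. Npy, a neuropeptide gene, headed them at 112, 122, 107 and 101 CPM against 2.33, 0, 0 and 3.0 CPM. Bmper, which binds bone morphogenetic proteins outside the cell, stood at 106, 122, 118 and 75.6 CPM against 8.16, 7.99, 0 and 9.0 CPM. Mstn, the TGF-beta family ligand myostatin, stood at 102, 79, 61.4 and 98 CPM against 10.5, 11.2, 0 and 0 CPM. On the other side, Upk3b, Akap12, Megf6, Mme, Sulf1, Anxa1, Hic1, Kcne1l, Gucy1b3 and Tfpi were the 10 genes farthest below fibroblasts. Akap12, a scaffold for protein kinase A, stood at 83, 81.1, 86.4 and 75.6 CPM in members and 653, 649.9, 889 and 771 CPM in fibroblasts.
Growth factor genes were divided, with 5 of 17 higher and 5 lower in all libraries, near the 24.0% and 21.4% over all genes. Igf1, insulin-like growth factor, stood at 1051, 871, 700.1 and 748 CPM in members and 192, 285, 96.1 and 129 CPM in fibroblasts, whereas Cxcl12, a chemokine, stood at 159, 131, 47.7 and 64.4 CPM and 556, 794, 64.1 and 123 CPM. Among 9 YAP targets 4 were higher and 2 lower. Among 13 Hippo pathway genes 6 were higher and 2 lower, beside the same 24.0% and 21.4%. Tead1, a DNA-binding partner of YAP, was one of the lower genes, at 87.5, 82.2, 75 and 106 CPM against 163, 134, 128 and 168 CPM.
Of 16 elastic fibre and microfibril genes 7 were higher and 4 lower, beside 24.0% and 21.4% over all genes. Fbn2, the fibrillin of embryonic tissue, stood at 709.5, 694, 739 and 583 CPM against 339, 388, 278 and 336 CPM.
Several cell cycle and glycolysis genes were lower in members than in fibroblasts. Cdkn1c, an inhibitor of cyclin-dependent kinases, stood at 242, 213, 377 and 280.1 CPM against 1262, 935, 1162 and 1362 CPM, and Ccnd2, cyclin D2, at 404, 291, 439 and 386 CPM against 901, 607, 989 and 1276 CPM. Of 11 S phase genes, 0 were higher in all libraries and 8 were lower, beside 21.4% lower over all genes. Of 20 G2 and M phase genes 0 were higher and 6 lower, a share nearer to that of all genes. Of 11 genes of glycolysis and hypoxia, 2 (Vegfa and Egln3) were higher and 6 were lower, beside 24.0% and 21.4% over all genes.

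**Figure D1:**
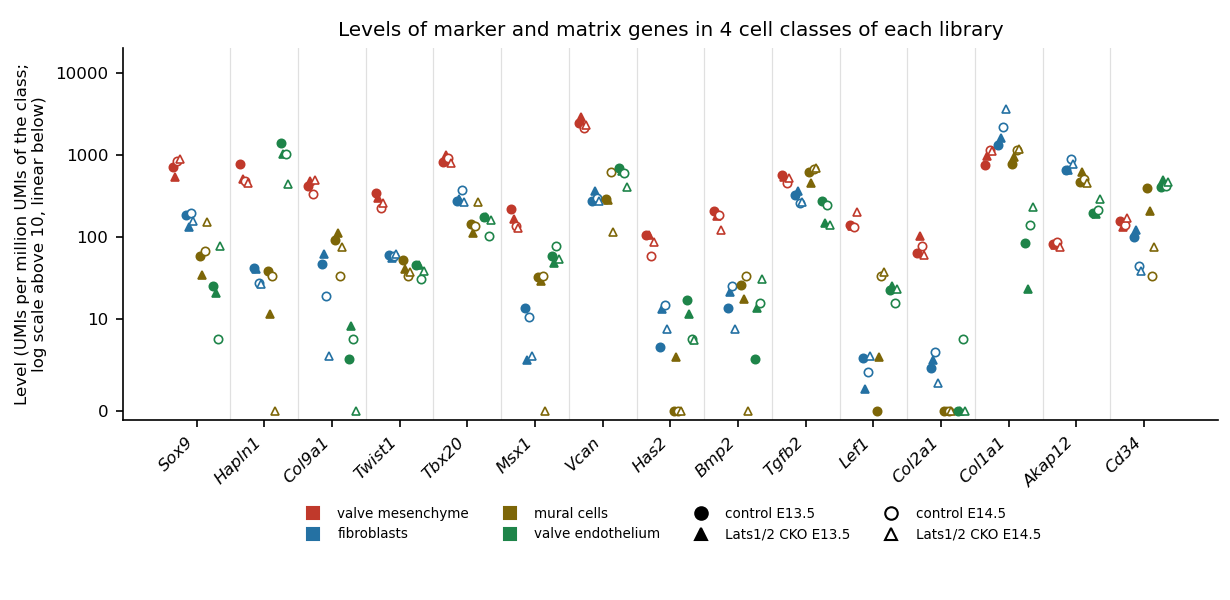
Each point is the level of a gene in one class of one library, in UMIs per 1000000 UMIs of that class (CPM), on an axis that is logarithmic above 10 and linear below. Colours mark the 4 classes, circles control and triangles Lats1/2 CKO, filled E13.5 and open E14.5; Vcan, Msx1 and Twist1 lie above all fibroblast points in members, Hapln1 is shared with valve endothelium, and Akap12 lies lower in members.

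Members made up a smaller share of kept cells at E14.5. The share was 16.8% (95% interval 15.7 to 17.9) in control and 14.7% (95% interval 13.8 to 15.7) in Lats1/2 CKO at E13.5, with exact Clopper-Pearson intervals that cover counting error only. At E14.5 it was 5.99% (95% interval 5.38 to 6.65) and 4.95% (95% interval 4.40 to 5.55). Among non-cardiomyocyte cells the shares were 26.7, 23.2, 13.8 and 11.2%. Both Lats1/2 CKO libraries lay below their control, and both E14.5 libraries lay below both E13.5 libraries. The rule counts genes seen, so depth can set these shares. After thinning to 1000 UMIs and leaving out shallower cells, the shares were 12.95, 11.5, 4.43 and 3.80%, and the intervals of the genotypes overlapped at both stages. With 1 library per group there is no test of the genotypes. How hearts were dissected, and what part of the valves each library holds, is not given in the sources used here.

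**Figure D2:**
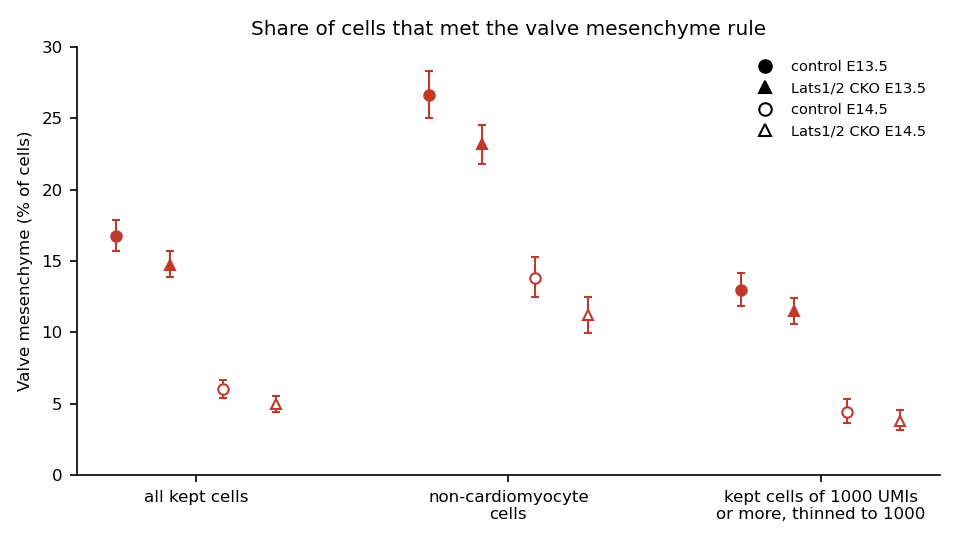
Share of cells that met the valve mesenchyme rule, in percent, for each library with its 95% exact interval, over all kept cells, over non-cardiomyocyte cells and after thinning to 1000 UMIs. The E14.5 points lie below the E13.5 points in each set of cells, and the control and Lats1/2 CKO intervals overlap after thinning.

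Members at E13.5 fell into 6 groups when these 1623 cells were clustered on their own, without cell cycle list genes, haemoglobin, mitochondrial and transgene genes. The groups carry numbers, since the clustering used the genes named here, and their levels are a description with no test. Group 1 (522 cells) was led by Wnt16, Dkk2, Fst, Dpt and Angpt1. Wnt16 stood at 164 against 40.6 CPM in the other members, Lef1 at 262 against 86.2, and Axin2 at 74 against 25.1. Its leading genes also held Nkd1 and Nkd2, which like Dkk2 restrain Wnt signals. The whole Wnt list went the other way, with a sum of 2414 CPM in this group against 3086 to 5808 CPM in the other 5. Sfrp2 had a large part in these sums, at 103 against 1705 CPM in the other members. Group 2 (631 cells) was led by Lect1, an inhibitor of vessel growth from cartilage, at 51.4 against 2.16 CPM in the other members. Aspn, a small proteoglycan, stood at 259 against 62.6 CPM, Col2a1 at 164 against 49.7 CPM and Scx, the tendon factor scleraxis, at 323 against 127 CPM. Vegfa, Pdk1, Bnip3 and Ddit4, genes that rise under low oxygen, were among its leading genes too. Vegfa was seen at 152 against 36.7 CPM.

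Group 3 (95 cells) was led by Ankrd1, Edn1, Stmn4, Actg2 and Ctgf. Ankrd1 stood at 285 against 42.5 CPM in the other members, Ctgf, a matrix-associated YAP target, at 914 against 197, and Acta2, smooth muscle actin, at 1812 against 466. Car3 of set V stood at 1586 against 467 CPM. Group 4 (298 cells) was led by mitotic genes such as Prc1, Hmmr, Ube2c and Top2a, although cell cycle list genes were left out of the clustering. Group 5 (57 cells) was led by Cxcl12, Smoc2, Osr1, Eln and Fbln5. Eln, the elastin gene, stood at 6978 against 583 CPM there, and Rgs5, a mural marker, at 683 against 98.3. Set V summed to 1435 CPM in that group, against 3906 CPM in group 1, and 59.6% of its cells showed only 2 genes of set V. Group 6 (20 cells) was led by cardiomyocyte genes such as Nppa, Pln and Myl3. Its 10 cardiomyocyte markers summed to 14489 CPM, and the limit on cardiomyocyte transcripts in the rule read 4 genes only.

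All 6 groups held cells of both genotypes: 254 control and 268 Lats1/2 CKO cells in group 1, 249 and 382 in group 2, 55 and 40 in group 3, 155 and 143 in group 4, 28 and 29 in group 5, and 10 and 10 in group 6. No comparison of these sizes is made, since the libraries have no replicates. Of the 20 leading genes of each group, Nts in group 5 had no UMI in control, and Gm36266, Myoz2 and RP23-178I17.1 in group 6 had none in Lats1/2 CKO. In group 1, Wnt16 stood at 183 and 148 CPM in control and Lats1/2 CKO cells, and Dkk2 at 99.99 and 34.3 CPM. In group 3, Ctgf stood at 826 and 1019.5 CPM. At E14.5 the 607 members gave 2 groups, of 488 and 119 cells, the smaller led by mitotic genes such as Incenp and Cenpf. When both stages were clustered together, 1 group held 90% of control and 89.9% of Lats1/2 CKO members of E14.5 and 4 cells of E13.5, so groups were read within a stage.

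**Figure D3:**
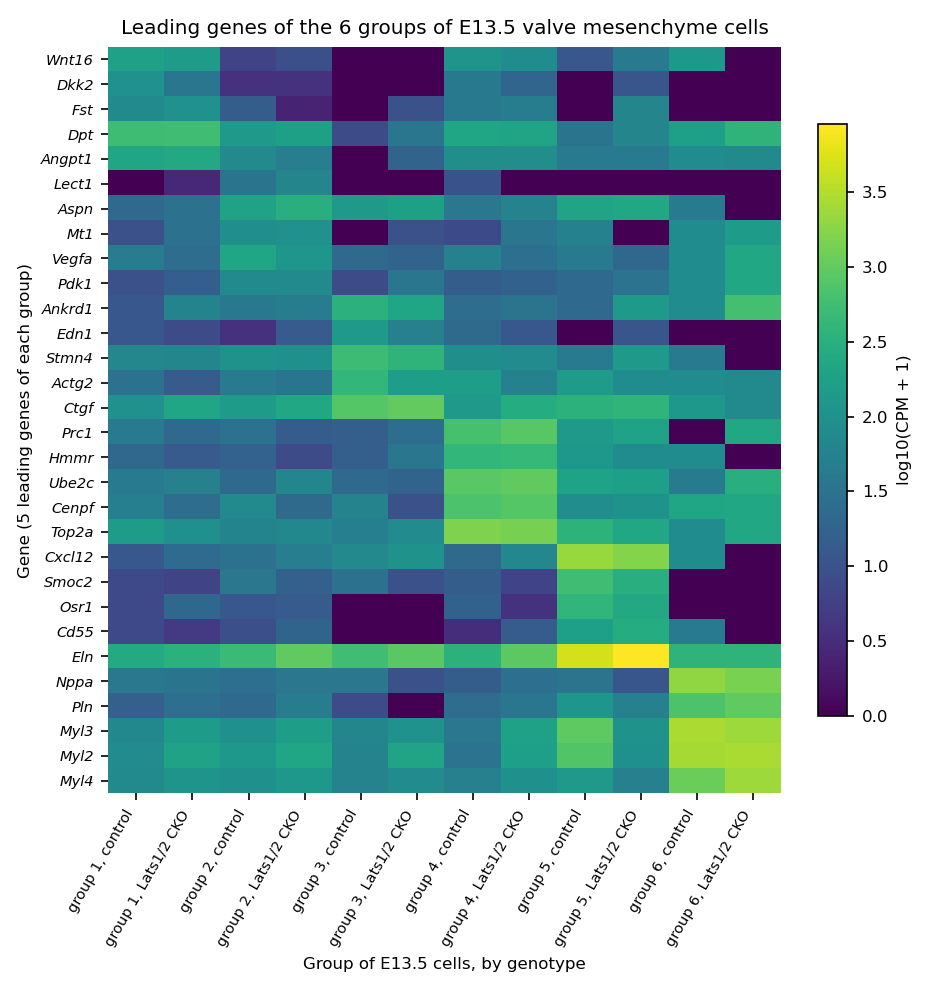
Levels of the 5 leading genes of each group of E13.5 members, as log10(CPM + 1), with a column for the control and the Lats1/2 CKO cells of each group. Most blocks of high values lie along the diagonal: Wnt16 to Angpt1 in group 1, Lect1 in group 2 and Edn1 to Ctgf in group 3. The same holds for mitotic genes in group 4, Eln and Cxcl12 in group 5 and cardiomyocyte genes in group 6. Ankrd1, Mt1, Vegfa and Pdk1, leading genes of groups 2 and 3, are highest in the 10 Lats1/2 CKO cells of group 6. In control cells, Aspn is higher in group 5 than in group 2.

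Few members carried transcripts of the recombined reporter. Rosa26mTmG switches from membrane Tomato to membrane EGFP after Cre activity. An Egfp UMI was seen in 18 of 751, 53 of 872, 10 of 330 and 9 of 277 members. Cells with such a UMI were deeper in 3 of the 4 libraries, with medians of 3205, 2103, 1996 and 960 UMIs against 1547, 1761, 968 and 978 UMIs in the other members. After thinning to 500 UMIs the share with an Egfp UMI was 0.399, 1.38, 0.606 and 1.08% of members and 1.33, 4.57, 2.0 and 6.15% of fibroblasts. Among cells removed by the cardiomyocyte limit, which are rich in cardiomyocyte transcripts, it was 0.542, 1.63, 1.06 and 0.994%. The member shares rest on 3, 12, 2 and 3 cells and lay at or near those of the cells removed by the cardiomyocyte limit. Those of fibroblasts lay above both in all 4 libraries. Whether the member UMIs came from recombined cells or from background was not tested. Wt1 itself was seen after thinning in 0.133, 0, 0.606 and 0% of members.

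Lats1 and Lats2 transcripts showed no common direction between the genotypes in members. Lats1 stood at 26.8, 36.3, 31.8 and 28 CPM and Lats2 at 26.8, 19.7, 27.3 and 53.2 CPM. Whether the counted tags of these genes lie in the deleted exons is not given in the sources used here. These levels do not check the deletion.

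The genotype comparison asked which genes of the members differ between Lats1/2 CKO and control hearts. It used edgeR's quasi-likelihood test on counts summed per library, with stage as a second term, and left 1 residual degree of freedom. Of 10388 genes, 4 rose and 1 fell at a Benjamini-Hochberg adjusted p under 0.05, which is 0.0481% of genes tested (0.0385% higher and 0.00963% lower). The genes that rose were the ribosomal pseudogenes Rps13-ps1 and Rps15a-ps8 and the predicted genes Gm8420 and Gm11942, and the row Gm17660_Gm43333 fell. Rps13-ps1 stood at 3.92, 304, 2.27 and 417 CPM in members and at 3.22, 331, 1.35 and 387 CPM in all other kept cells, a log2 difference in members of 6.52 ± 0.32 (SE; adjusted p = 0.00027). All 5 moved by at least 50% as much in the other kept cells of the same hearts, with a median ratio of 1.10. Pseudogenes share reads with their parent genes, so how reads were assigned can set such rows. At an unadjusted p under 0.05, 435 genes passed (4.19%), 218 of them higher in Lats1/2 CKO. The count rose to 112 when membership was decided by UMIs and to 98 with no filter on low counts. With genotype alone in the model, 1 gene passed with all 4 libraries, 18 without the Lats1/2 CKO E14.5 library and 3 without the control E13.5 library.

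No listed Hippo gene or YAP target passed the threshold in members. In simulated counts with the means and depths of these libraries, the fit found 46% of 2-fold changes at a dispersion (extra spread between libraries) of 0.01. At a dispersion of 0.05 it found 0% of them. For 4-fold changes it found 93% and 75.5%. A gene that did not pass can therefore still differ. Of 16 YAP targets tested, 3 were higher at both stages and 3 lower at both, beside 25.2% and 26.2% of all genes, and their median log2 difference was -0.01 against 0.01 over all genes. Ctgf stood at 202, 289.8, 134 and 129 CPM, Cyr61, another secreted YAP target, at 579.5, 564, 550.1 and 406 CPM, and Ankrd1, a nuclear ankyrin repeat target, at 53.6, 66.2, 125 and 154 CPM. For Ctgf the Lats1/2 CKO value was higher at E13.5 alone, Cyr61 was lower at both stages, more so at E14.5, and Ankrd1 was higher at both stages, a log2 difference of 0.31 ± 0.21 (SE; unadjusted p = 0.18, adjusted p = 0.9999). Ankrd1 is also a cardiomyocyte gene. Of 25 Hippo pathway genes, 0 passed and the median log2 difference was -0.0045. Yap1 stood at 77.1, 57.6, 54.6 and 70.01 CPM and Wwtr1, which codes for TAZ, at 133, 155, 150.03 and 132 CPM, with overlapping values in the genotypes.

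No gene of the cushion programme passed the genotype test, with the same limit on what that test can find. Of 33 cushion transcription factors tested, 0 passed and 11 were higher in Lats1/2 CKO, beside 5306 of all 10388 genes tested. No gene passed among 17 of hyaluronan matrix, 17 of cartilage-type matrix, 27 of TGF-beta and BMP signalling or 25 of Wnt signalling. For Vcan the log2 ratio of Lats1/2 CKO over control was 0.22 at E13.5 (95% interval 0.16 to 0.28) and 0.14 at E14.5 (95% interval 0.00 to 0.28), with intervals that cover counting error between single libraries only. For Tbx20 it was 0.27 at E13.5 (95% interval 0.17 to 0.38) and -0.21 at E14.5 (95% interval -0.44 to 0.01). Set V chose the cells, so its levels are given with no test. Car3, a carbonic anhydrase of that set, stood at 671, 451, 623 and 439.7 CPM.

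Glycolysis genes lay mostly on one side. Of 19 tested, 15 were higher in Lats1/2 CKO, beside 5306 of all 10388 genes tested. At both stages 11 were higher and 3 lower, beside 25.2% and 26.2% of all genes. Their median log2 difference was 0.37 against 0.01 over all genes. None passed the threshold, and 4 (Gpi1, Pfkl, Eno1 and Slc16a3) had an unadjusted p under 0.05, beside 4.19% of all genes. The list did not set members apart from fibroblasts in the class by genotype fit given below. There 10 of 19 had a larger difference in members, beside 4937 of all 10029 genes, and 0 passed. Eno1, enolase of glycolysis, stood at 86.2, 169.7, 155 and 210.04 CPM, a log2 ratio of 0.97 at E13.5 (95% interval 0.68 to 1.28) and 0.44 at E14.5 (95% interval -0.05 to 0.94). Gpi1, which isomerises glucose phosphate, stood at 48.3, 111, 77.3 and 84 CPM, and Pfkl, the liver-type phosphofructokinase, at 31.4, 65.1, 38.6 and 61.6 CPM. All 3 were higher in Lats1/2 CKO at both stages. Eno1 and Gpi1 were so in fibroblasts too, at 121, 229, 226 and 402 CPM and 74.6, 141, 117 and 183 CPM. Median mitochondrial shares in members were 2.45%, 2.41%, 2.70% and 5.10%, and their part in this difference was not tested.
Early response genes, the transcripts that follow cell stress and dissociation, lay mostly on the other side. Of 18 tested, 0 were higher at both stages and 10 were lower at both, beside the same 25.2% and 26.2%. None passed the threshold, and 1, Klf4, had an unadjusted p under 0.05, beside 4.19% of all genes. Fos stood at 1709.8, 1502, 1880.000 and 1269 CPM.

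By ratio at both stages, the genes farthest apart outside pseudogenes and haemoglobin were low in level. Angptl1, a secreted angiopoietin-like protein, stood at 17.6, 45.9, 18.2 and 56 CPM, a log2 difference of 1.46 ± 0.34 (SE; unadjusted p = 0.00244, adjusted p = 0.563). Penk, the precursor of enkephalins, stood at 37.2, 80.1, 11.4 and 86.8 CPM, a log2 difference of 1.61 ± 0.40 (SE; unadjusted p = 0.00375, adjusted p = 0.647). Rassf2, a partner of the Hippo kinases, stood at 14.4, 32, 25 and 56 CPM. These 3 genes were higher in the Lats1/2 CKO library at each stage, and none passed the threshold. Ltbp2, a microfibril protein, stood at 8.49, 34.7, 45.5 and 78.4 CPM and differed between stages as well. Flt1, a VEGF receptor, was lower in Lats1/2 CKO at each stage, at 32.7, 15.5, 59.1 and 16.8 CPM. The embryonic globins Hbb-y and Hba-x were lower too, at 3009, 1237, 1814 and 470.5 CPM and 306, 136, 266 and 64.4 CPM, and were also lower in fibroblasts (3986, 1237, 1762 and 879 CPM for Hbb-y).

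**Figure D4:**
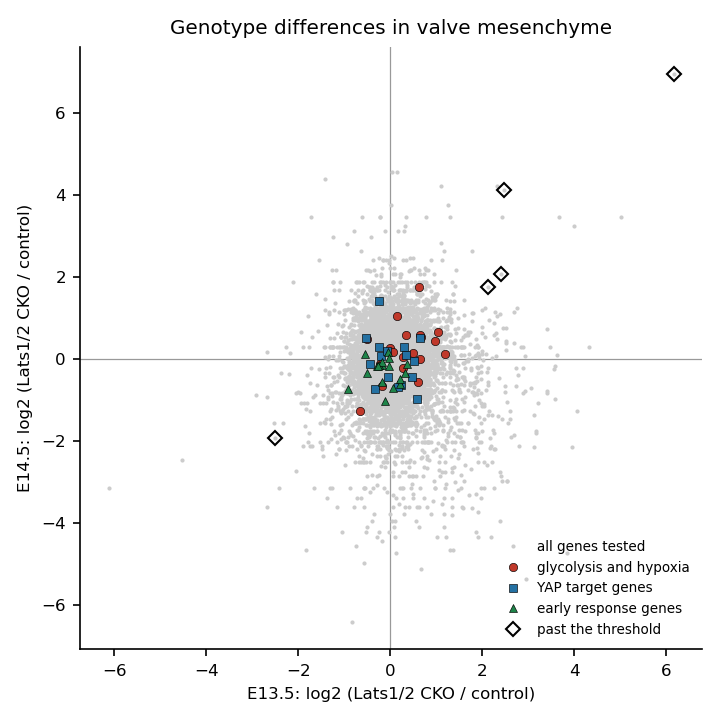
Log2 ratio of Lats1/2 CKO over control in members at E13.5 (horizontal) and E14.5 (vertical), one grey point per tested gene. Red circles are glycolysis and hypoxia genes, blue squares YAP targets, green triangles early response genes, and open diamonds the 5 genes past the threshold, of which 4 lie at the upper right and 1 at the lower left.

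The stage comparison asked which genes differ between E14.5 and E13.5 members. In the same fit 81 genes rose and 2 fell, 0.799% of the 10388 tested (0.78% higher and 0.0193% lower), and 35 of the 83 were Rpl or Rps genes. At an unadjusted p under 0.05, 11.9% passed. The same direction was seen in all other kept cells for 81 of the 83, and 73 moved there by at least 50% as much. The count was 379 when membership was decided by UMIs and 367 with no filter on low counts. With stage alone in the model, 71 genes passed with all 4 libraries, 443 without the Lats1/2 CKO E13.5 library and 193 without the control E13.5 library.
Of the 6 cardiomyocyte markers that the rule did not use, 4 rose at E14.5 (Myl7, Myl3, Nppa and Ttn), beside 0.78% of all genes. Ttn, the sarcomere protein titin, stood at 40.5, 35.8, 223 and 207 CPM, a log2 difference of 2.56 ± 0.21 (SE; adjusted p = 0.00068). Ankrd1 was the 1 YAP target that rose, a log2 difference of 1.29 ± 0.22 (SE; adjusted p = 0.043). Hmgb2, a chromatin protein of dividing cells, rose from 160 and 136 CPM to 548 and 619 CPM, a log2 difference of 2.05 ± 0.19 (SE; adjusted p = 0.00167).
No cushion transcription factor, matrix gene or signalling gene of the lists passed the stage test. Msx1 was lower at E14.5, at 220.2, 168, 139 and 129 CPM, a log2 difference of -0.46 ± 0.20 (SE; unadjusted p = 0.0492, adjusted p = 0.419). Msx2, its paralog, stood at 31.4, 44.8, 6.82 and 14 CPM, a log2 difference of -1.82 ± 0.46 (SE; unadjusted p = 0.00392, adjusted p = 0.178). Of 22 S phase genes, 21 were lower at E14.5 with a median log2 difference of -0.52, and 0 passed. Over all 10388 genes tested, 5125 were higher at E14.5. Actg2, smooth muscle gamma actin, fell, at 116, 41.6, 13.6 and 5.60 CPM, a log2 difference of -2.95 ± 0.40 (SE; adjusted p = 0.0147).

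A further fit asked whether members and fibroblasts differed in their genotype effect, with a class by genotype term over the 8 sums of both classes. A positive value means that the difference of Lats1/2 CKO minus control was larger in members. Of 10029 genes, 9 were larger in members (0.0897%) and 30 smaller (0.299%), in all 0.389% of those tested, and 5.25% passed at an unadjusted p under 0.05. DESeq2 on the same design called 0 (28 at an unadjusted p under 0.05), and edgeR called 0 without the stage by class term (390 at an unadjusted p under 0.05). Dcn, the proteoglycan decorin, stood at 695, 1009, 1184 and 1445 CPM in members and 1704, 995, 1912 and 1738 CPM in fibroblasts. It was higher in Lats1/2 CKO members at both stages and lower in Lats1/2 CKO fibroblasts at both, a log2 class difference of 0.90 ± 0.12 (SE; adjusted p = 3.4e-10). Pdgfra, a growth factor receptor of mesenchyme, stood at 201, 246, 170.5 and 229.6 CPM in members and 266, 157, 249.9 and 135 CPM in fibroblasts, a log2 class difference of 1.12 ± 0.20 (SE; adjusted p = 7.6e-05). Its order was the same as that of Dcn. Tgfbi, a secreted matrix protein induced by TGF-beta, stood at 674, 749, 423 and 381 CPM in members and 128, 107, 164 and 18 CPM in fibroblasts, a log2 class difference of 0.90 ± 0.21 (SE; adjusted p = 0.00696), where the Lats1/2 CKO E14.5 value was far the lowest.

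Smooth muscle genes lay on the other side of this test, with 2 of 10 smaller in members, beside 0.299% of all 10029 genes. Acta2 stood at 604, 535, 343 and 235 CPM in members and 1022, 1446, 525 and 693 CPM in fibroblasts, a log2 class difference of -0.77 ± 0.14 (SE; adjusted p = 0.00011). Tagln, the actin-binding transgelin, stood at 924, 657, 475 and 336 CPM and 796, 863, 269 and 432 CPM, a log2 class difference of -0.80 ± 0.14 (SE; adjusted p = 9.1e-05). Both were lower in Lats1/2 CKO members and higher in Lats1/2 CKO fibroblasts at each stage. Among 31 growth factor genes, Pdgfra was larger and Igf1, Igfbp3 and Cxcl12 were smaller, beside 0.0897% and 0.299% of all genes. Igfbp3, also a YAP target, stood at 23.5, 18.7, 56.8 and 33.6 CPM in members and 61.8, 49.6, 19.2 and 255 CPM in fibroblasts, a log2 class difference of -1.60 ± 0.41 (SE; adjusted p = 0.028), so that the Lats1/2 CKO E14.5 fibroblasts alone were high. S100a6, a calcium-binding protein, showed the same pattern, at 32.7, 38.4, 56.8 and 33.6 CPM and 39.6, 91.1, 53.4 and 381 CPM, a log2 class difference of -1.91 ± 0.36 (SE; adjusted p = 0.00016). Mt1, metallothionein, was higher in Lats1/2 CKO in both classes but more so in fibroblasts, at 31.4, 55, 65.9 and 78.4 CPM and 9.32, 59.2, 12.8 and 123 CPM, a log2 class difference of -2.36 ± 0.47 (SE; adjusted p = 0.00045).
The fibroblast libraries differed in other cell markers. Their 12 epicardial markers summed to 472, 448, 320.4 and 1627 CPM and their cardiomyocyte markers to 893, 1861, 3358 and 3841 CPM. Myl7 and Myl3 of the 6 cardiomyocyte markers outside the rule, and 2 of 6 erythroid markers, were among the genes smaller in members. Over all genes 0.299% were smaller. The part of these markers in the class difference was not tested.

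The same fit held a class by stage term, which sets the E14.5 minus E13.5 difference of members against that of fibroblasts. The term is signed, so larger in members can mean a weaker fall at E14.5. It was added after the stage shift in all cells had been seen. Libraries entered both class terms as blocks. The difference was larger in members for 33 genes (0.329%) and smaller for 19 (0.189%), in all 0.518% of 10029, and 6.42% passed at an unadjusted p under 0.05. DESeq2 called 2 (30 at an unadjusted p under 0.05) and edgeR without the genotype by class term 20. With 1 residual degree of freedom these p-values rest on a spread shared across genes. Of 18 elastic fibre genes, 3 were larger in members. Eln (chromosome 5, 134702593 to 134747323, minus strand) stood at 658, 1167, 834 and 1092 CPM in members and 2180.5, 4169.5, 656 and 1137 CPM in fibroblasts, a log2 class difference of 1.92 ± 0.12 (SE; adjusted p = 2.3e-51). Fbln5, which assembles elastic fibres, stood at 502, 655, 364 and 504 CPM and 1097, 1802, 235 and 378 CPM, a log2 class difference of 1.82 ± 0.16 (SE; adjusted p = 9.3e-28). For both genes both E13.5 fibroblast values exceeded both E14.5 ones, while the Eln values of members overlapped between the stages. Eln and Fbln5 were the 2 genes that DESeq2 also called. Among E13.5 members, those outside group 5 stood at 583 CPM of Eln. Fbln2, a fibulin of cushions, stood at 1098, 832, 814 and 851 CPM and 650.3, 547, 246 and 354 CPM, a log2 class difference of 0.82 ± 0.15 (SE; adjusted p = 4.1e-05).

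Secreted Wnt modulators showed the same order, with 2 of 23 Wnt genes larger in members. Over all 10029 genes tested, 0.329% were larger and 0.189% smaller. Sfrp2, a Wnt-binding protein, stood at 973, 1436, 764 and 966 CPM in members and 1120.000, 2079, 406 and 558 CPM in fibroblasts, a log2 class difference of 1.22 ± 0.13 (SE; adjusted p = 1.6e-16). Dkk3, a dickkopf family protein, stood at 483, 679, 393 and 546 CPM and 128, 253, 49.1 and 75 CPM, a log2 class difference of 1.28 ± 0.23 (SE; adjusted p = 4.1e-05). Mgp, matrix Gla protein, an inhibitor of calcification, stood at 1519.6, 2119, 1139 and 1145 CPM and 975, 2035, 333 and 435 CPM, a log2 class difference of 1.24 ± 0.13 (SE; adjusted p = 3.6e-17). All 3 genes were lower at E14.5 in both classes and both genotypes, by more in fibroblasts.
Early response genes had 6 of 19 larger and 1 smaller in members, beside 0.329% and 0.189% over all genes. Fos stood at 1709.8, 1502, 1880.000 and 1269 CPM in members and 1758, 1315, 1224 and 606 CPM in fibroblasts, a log2 class difference of 0.76 ± 0.12 (SE; adjusted p = 3.9e-07). Jun, its partner in AP-1, stood at 502, 623, 802 and 636 CPM in members and 671, 654, 609 and 387 CPM in fibroblasts, a log2 class difference of 0.80 ± 0.15 (SE; adjusted p = 3.4e-05). The other 4 larger genes were Fosb, Junb, Egr1 and Socs3. Ccl2, a chemokine, was the smaller one and was nearly absent from E14.5 members, at 33.3, 7.47, 2.27 and 0 CPM against 119, 82.3, 182 and 117 CPM in fibroblasts.
Glycolysis genes had 2 of 19 smaller in members, beside 0.189% over all genes. Aldoa, an aldolase, stood at 403, 491, 339 and 347 CPM in members and 486, 549.97, 681 and 624 CPM in fibroblasts, a log2 class difference of -0.71 ± 0.16 (SE; adjusted p = 0.00227), and Ldha, lactate dehydrogenase, at 628, 623, 423 and 509.7 CPM and 651, 787, 771 and 900.3 CPM, a log2 class difference of -0.65 ± 0.14 (SE; adjusted p = 0.00251). Among 37 collagen and matrix genes, Fn1 and Serpinh1 were smaller in members and 0 were larger, beside 0.189% and 0.329% over all genes. Erythroid markers had 4 of 6 larger in members, beside 0.329% over all genes.

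**Figure D5:**
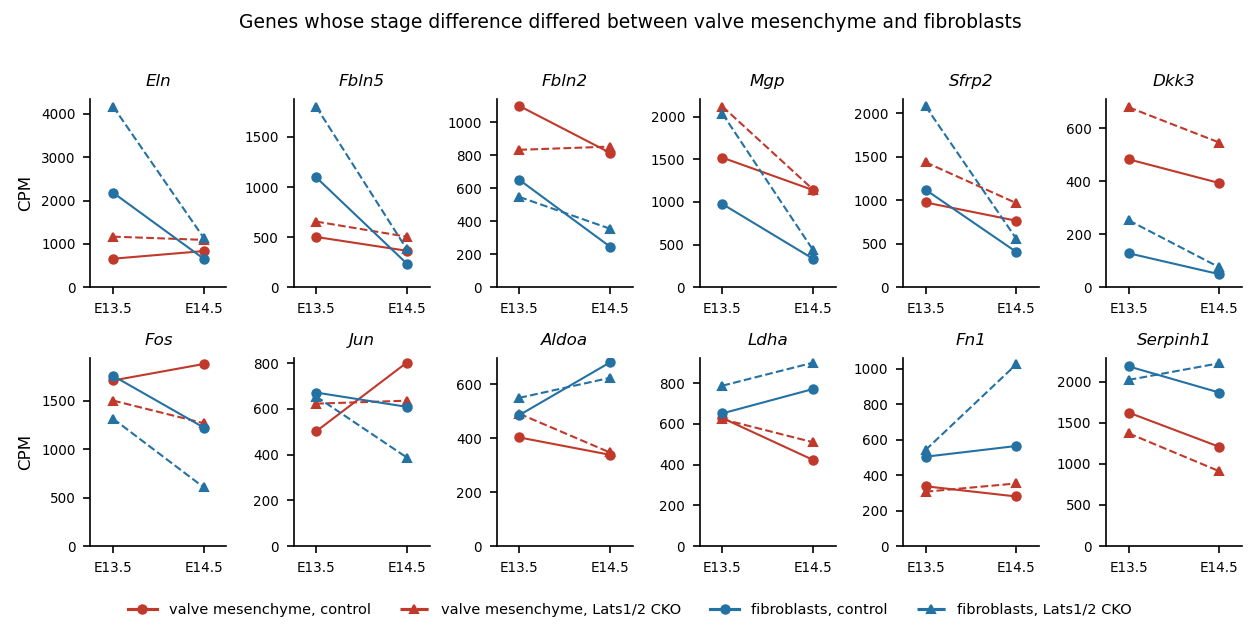
Levels in CPM at E13.5 and E14.5 of 12 genes whose stage difference differed between the classes, in members (red) and fibroblasts (blue), with solid lines and circles for control and dashed lines and triangles for Lats1/2 CKO. Eln and Fbln5 are lower at E14.5 in both fibroblast lines, the member lines of Eln cover one range at both stages, and Aldoa is higher at E14.5 in fibroblasts and lower in members.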

How the data were processed

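Drop-seq counts UMIs of cells captured in droplets. The authors deposited 1 table of UMI counts per gene and cell, with 30268 genes and 24849 cells. The labels name the build mm10 and the tools STAR and Picard, per the submitters' processing notes; the gene models, filters and doublet treatment are not given in the sources used here. Cells were assigned to libraries by the suffix of their barcode.

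Counts were summed per class and library. The main test was edgeR 4.0.16 (R 4.3.3) with TMM scaling, its filter on low counts, a quasi-likelihood fit and Benjamini-Hochberg adjustment at 0.05, on stage plus genotype over the 4 libraries. Members and fibroblasts were compared by class terms over 8 sums. DESeq2 1.42.0, other membership rules, no filter on low counts, fewer model terms and leaving out each library were the alternatives, and the scripts were tested on simulated data. Class differences in level and clusters (Scanpy 1.11.5) carry no test. P-values do not measure spread between replicate libraries, since none of the 4 libraries is replicated. In the main fit, residual spread came only from how far the 4 libraries departed from additive effects of stage and genotype. Scrublet marked 10 cells in all, 1 of them a member, which is too few for the caller to have worked, so doublets were not removed. Depth per library ran from 8569238 to 17073173 UMIs in kept cells.

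Members and gene lists were chosen with earlier results of these data known. Genes were named by these rules: members of the lists, the 20 genes farthest above and 10 farthest below fibroblasts in their weakest library, genes past a threshold, and those with the largest ratio of 1 sign at both stages or in both genotypes. Which listed genes are printed was decided with their values in view, and Rps12, Eif2s3y and the leading genes of groups lie outside the rules and were chosen after their values were seen.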

Additional observations from a re-analysis of the deposited data

Results flagged for a closer look

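These genes had an effect that differed between members and fibroblasts by edgeR's class terms, with adjusted p under 0.05. Values are log2 differences of members minus fibroblasts. Larger and smaller are read with their sign, so larger can mean a weaker fall. The genotype effect was larger in members for Sparcl1 (1.23), Pdgfra (1.12), Dcn (0.90), Tgfbi (0.90) and Egr1 (0.69). It was smaller in members for the matrix-related genes Smoc2 (-1.60) and Plod2 (-0.76) and the smooth muscle genes Acta2 (-0.77) and Tagln (-0.80). Growth factor genes on that side were Igfbp3 (-1.60), Cxcl12 (-0.77) and Igf1 (-0.72). The same held for Mt1 (-2.36), Flt1 (-2.18), S100a6 (-1.91) and Tnfrsf12a (-1.21). Each of these genes lost its call with DESeq2 and without the stage by class term, and Cxcl12, Igf1 and Plod2 lost it in all 4 alternatives. Car3 stood at -1.56, but it chose the members, so the value is a description, and it turned to 0.47 when membership was decided by UMIs.

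The stage effect, read with its sign, was larger in members for Eln (1.92), Fbln5 (1.82), Fbln2 (0.82), Mgp (1.24), Sfrp2 (1.22) and Dkk3 (1.28). These genes were lower at E14.5 in fibroblasts of both genotypes, with a weaker fall or none in members. The early response genes Fos (0.76), Fosb (1.19), Jun (0.80), Junb (0.75), Egr1 (0.56) and Socs3 (1.39) were on the same side, as were Cxcl12 (1.54), Rgs5 (1.86) and Lmod1 (3.04). Col9a1 stood at 1.83 and Car3 at 1.64, but both chose the members, so these values are a description. It was smaller in members for Ccl2 (-4.58), Dpt (-1.11), Igfbp5 (-0.72), Aldoa (-0.71), Ldha (-0.65), Fn1 (-0.58) and Serpinh1 (-0.46). Of the genes of the stage effect, Eln and Fbln5 were called in all 4 alternatives, and Fn1 and Car3 in none.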

How the results depend on the processing

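In the class terms, members and fibroblasts of a library shared a block for that library. No paired analysis of genotypes or stages was possible because every group is 1 library and the labels carry no replicate numbers. Each group being a single library, genotype and library cannot be told apart, and E14.5 members had fewer cells and less depth per cell.

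The 5 genotype calls became 112 when membership was decided by UMIs rather than by genes seen, 12 with at least 3 genes of set V, 8 with DESeq2, 98 with no filter on low counts and 1 without the stage term. With 1 library left out, 3 libraries could not carry both terms, so these fits held 1 term: genotype alone gave 3 (without control E13.5) to 18 (without Lats1/2 CKO E14.5), against the 1 with all 4 libraries. The 83 stage calls became 379 by UMIs, 126 with at least 3 genes of set V and 367 with no filter, and stage alone gave 66 to 443 without 1 library, the highest without Lats1/2 CKO E13.5, against 71 with all 4. The 39 calls of class by genotype became 0 with DESeq2, 23 with no filter and 0 without the stage by class term, and Car3 turned from -1.56 to 0.47 when membership was decided by UMIs. The 52 calls of class by stage, a test added after seeing the data, became 2 with DESeq2, 32 with no filter and 20 without the genotype by class term. The cause of these differences was not tested.

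Shares of members, in the order of the libraries, were 11.5, 11.0, 3.02 and 2.38% with at least 3 genes of set V, 7.53, 6.51, 3.23 and 2.61% after thinning to 500 UMIs, and 12.95, 11.5, 4.43 and 3.80% after thinning to 1000 UMIs. Without the limit on cardiomyocyte transcripts the E14.5 shares were 7.23 and 5.56%. The order of the libraries was the same under each of these settings.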
